A study of Mus musculus with 7 samples.

Results

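Fatty acid oxidation and ketone body metabolism were followed through 34 named genes of the mouse, of 37310 genes in the count table. They hold 5 genes of the carnitine system, 4 acyl-CoA dehydrogenases, 5 mitochondrial hydratases, dehydrogenases and thiolases, 3 auxiliary enzymes for unsaturated fatty acids, 3 genes of the electron transfer flavoprotein system, 4 peroxisomal enzymes, 2 acyl-CoA thioesterases, 3 ketone body enzymes and 5 genes of regulators and fuel switch. RNA came from whole mammary glands of C57BL/6 mice at lactation day 1, with 3 WT libraries and 4 *Tardbp* KO libraries. *Tardbp* encodes TDP-43, an RNA-binding protein. WT mice were *Tardbp* wt/wt with the WAP-Cre transgene and KO mice were *Tardbp* fl/fl with WAP-Cre, so both groups carried Cre, which acts in luminal epithelial cells from mid-pregnancy on and leaves *Tardbp* intact in the other cells of the gland. In a bulk sample, fewer cells of a type and less RNA per cell cannot be told apart.

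Fatty acids enter mitochondria as carnitine esters and are shortened there in repeated cycles of 4 enzyme steps, whose electrons pass to the respiratory chain, partly through the electron transfer flavoprotein. Peroxisomes shorten very long and branched chains with their own enzymes. Ketone bodies are made mainly in liver, and other tissues, the lactating mammary gland among them, take them up and turn them back into acetyl-CoA, which can be oxidized or used to build milk fat. The lactating gland is best known for making fatty acids rather than for burning them.

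The 7 libraries had 36007737 to 42811337 counts on genes. Milk protein genes took 26.3% to 34% of the counts in WT libraries and 12.7% to 21.8% in KO libraries, so counts were scaled with TMM factors and are given as CPM, the count of a gene scaled to a common library size. *Tardbp* itself had 159 to 223 CPM in WT libraries and 154 to 214 CPM in KO libraries, and since the counts are per gene they do not show the deleted exons 2 and 3. Luminal epithelial markers were detected in all libraries, with summed levels of 2785 to 3771 CPM in WT and 3088 to 4438 CPM in KO libraries, and none of the 8 was at 0 in any library. Adipocyte markers were present as well, at 3333 to 5094 CPM in WT and 4010 to 7568 CPM in KO libraries. Of the 12, 9 had log2 fold changes above 0 and 3 below. Only 1 had an unadjusted p under 0.05, and it was higher in KO libraries, against 10.7% of all genes. The 12 lymphocyte markers summed to 47.6 to 67.8 CPM in WT libraries. In KO replicates 1 to 4 they summed to 516, 79.8, 688 and 155 CPM, and none was at 0 in any library. All 12 were higher in KO libraries with an unadjusted p under 0.05, against 10.7% of all genes. The part of these cells in the results was not tested. Only sequencing lane 4 held both genotypes, namely WT replicate 2 and KO replicates 3 and 4.

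Of the 34 genes, 33 passed the filter on low counts. *Cpt1b*, the muscle form of carnitine palmitoyltransferase 1, had 4 counts in each WT library and 1, 13, 13 and 5 counts in the KO libraries, and was not tested. Exons of *Chkb* cover 81.4% of its exon bases, where reads were left uncounted. Skeletal muscle markers were low too, at 9.16 to 14.4 CPM in WT and 10.7 to 16.8 CPM in KO libraries in sum, with 3 of 12 at 0 in some library. Genes were tested with edgeR's quasi-likelihood test, with the study's limits of 0.01 for the Benjamini-Hochberg adjusted p and of 1 for the size of the log2 fold change. No gene of the 34 and none of the 17175 tested passed these limits (0% of all genes). The lowest adjusted p of a member was 0.0712, for *Acat1*. With an unadjusted p under 0.05, 3 members were higher in KO libraries (*Cpt1a*, *Cpt2* and *Pdk4*), against 10.7% of all genes, and 4 were lower (*Acat1*, *Oxct1*, *Bdh1* and *Ppara*), against 10.7% of all genes. In 4 members every KO library lay above every WT library (*Cpt1a*, *Cpt2*, *Etfdh* and *Pdk4*), against 9.07% of all genes, and in 3 every KO library lay below (*Acat1*, *Oxct1* and *Bdh1*), against 9.62% of all genes. These shares of the members are close to those of all genes.

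The study itself reported differentially expressed genes at its limits with edgeR. Its methods do not name which edgeR test was used, so edgeR's exact test was run with the same limits. It called *Oxct1* and *Bdh1* lower, where 1.44% of all genes were called lower, and *Cpt1a* and *Pdk4* higher, where 1.04% of all genes were called higher. DESeq2's Wald test called the same 4 genes, where 1.63% of all genes were called lower and 1.68% higher. These calls depended on single libraries. The exact test called no member without WT replicate 1, WT replicate 3 or KO replicate 3, only *Oxct1* without KO replicate 2, and only *Bdh1* and *Oxct1* without KO replicate 4, while all 4 were called without WT replicate 2 or KO replicate 1. Over all genes, the exact test called 426, against 115, 128 and 185 without WT replicate 1, WT replicate 3 and KO replicate 3, 574 and 716 without KO replicates 2 and 4, and 814 and 412 without WT replicate 2 and KO replicate 1.

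**Figure D1:**
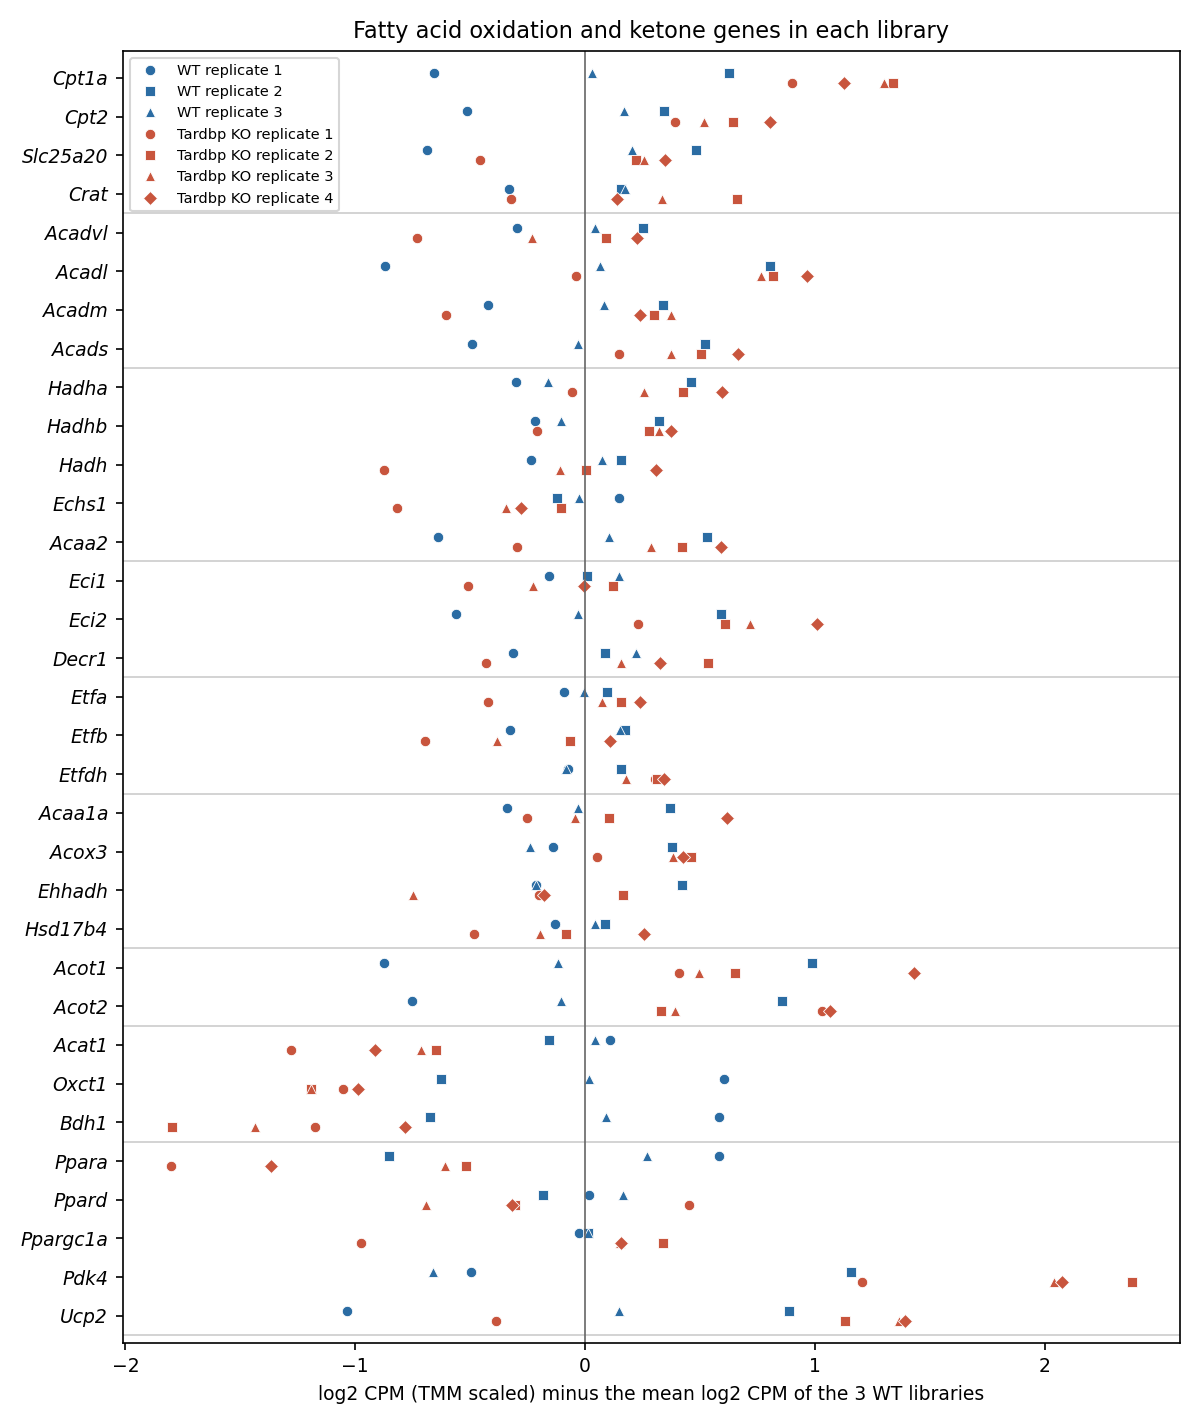
Each row is one of the 33 tested genes, in the order of the text, and each point is 1 library. The horizontal axis gives log2 CPM minus the mean log2 CPM of the 3 WT libraries. The red KO points of Acat1, Oxct1 and Bdh1 all lie to the left of the blue WT points. Those of Cpt1a, Cpt2, Etfdh and Pdk4 all lie to the right, and the groups overlap in every other row.

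TDP-43 is known to bind UG-rich RNA, and runs of at least 3 UG dinucleotides were therefore sought in the longest protein-coding transcript of each gene. A run was found in 17 of the 33 members (51.5%), against 10809 of 15112 tested genes with such a transcript (71.5%), at median transcript lengths of 2372 and 2909 bases. Runs of 6 or more UG stood in 2 members (6.06%) and in 957 of all genes (6.33%). The sequences below show 1 run, in capitals, of each of the 4 members called by the exact test and *Acat1*, and the longest run of each of the 2 members with 6 or more UG, written 5′ to 3′ as DNA from the GENCODE vM1 transcripts with their positions in NCBIM37.
Cpt1a, 3′ UTR, chr19:3385671-3385700, plus strand: cttagaaatgcaTGTGTGaacgaatatagc
Pdk4, 3′ UTR, chr6:5435368-5435397, minus strand: tgcttcgtgaaTGTGTGTGgactctagttt
Acat1, coding, run at chr9:53402519-53402524, minus strand, shown across an exon junction: ctcaaagtcttaTGTGTGgacatcaggatg
Oxct1, 3′ UTR, chr15:4104696-4104725, plus strand: gctagcagggttTGTGTGgcagagtgaatg
Bdh1, 3′ UTR, chr16:31458092-31458121, plus strand: catgtgggtgcgTGTGTGcatgcactcaca
Decr1, 3′ UTR, chr4:15845668-15845697, minus strand: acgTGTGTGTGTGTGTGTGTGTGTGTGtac
Ppargc1a, 3′ UTR, chr5:51848055-51848084, minus strand: aaagacagTGTGTGTGTGTGTGtccgttga

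The genes called by the exact test, and *Acat1*, carried runs of 3 or 4 UG. *Cpt1a* and *Acat1* had 1 run each, *Oxct1* 2 (the other lies in its coding sequence), *Pdk4* 3 and *Bdh1* 6, of which 5 lie in the 3′ UTR. The longest runs, of 12 UG in *Decr1* and 7 UG in *Ppargc1a*, stood in genes with log2 fold changes of 0.17 and -0.00. The median log2 fold change was 0.10 over the 17 members with a run and 0.21 over the 16 without one. A run is a match of letters and not a measured binding site, and *Cpt2*, *Ppara* and *Ucp2* had none in the transcript searched.

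The carnitine system moves long acyl chains into the matrix. *Cpt1a* (ENSMUSG00000024900, chr19:3323301-3385732) encodes the outer membrane transferase that sets the rate of entry. Its level was 27.3, 66.5 and 43.9 CPM in the WT libraries (replicates 1 to 3) and 80.3, 109, 106 and 94.0 CPM in the KO libraries (replicates 1 to 4). All KO libraries lay above all WT libraries, with WT replicate 2 closest to them. WT libraries had a mean of 45.9 ± 19.7 CPM (SD, n = 3), KO libraries one of 97.2 ± 12.9 CPM (SD, n = 4), a ratio of 2.12 and a log2 fold change of 1.08 (standard error 0.276). The adjusted p was 0.0918 in edgeR's quasi-likelihood test and 0.00962, just under the limit, in edgeR's exact test, both with Benjamini-Hochberg adjustment. *Cpt1a*, *Acat1* and *Oxct1* are among the lipid genes that the study itself picked on these libraries, so their directions here are not independent evidence.

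*Cpt2*, the inner membrane transferase that reforms acyl-CoA in the matrix, had 32.5, 58.9 and 52.1 CPM in WT libraries and 60.8, 72.4, 66.4 and 81.1 CPM in KO libraries. The groups did not overlap, but the highest WT and the lowest KO library were close, and the log2 fold change of 0.55 (standard error 0.211) had an adjusted p of 0.180 in the edgeR quasi-likelihood test after Benjamini-Hochberg adjustment. It ran from 0.34, without WT replicate 1, to 0.73, without WT replicate 2, and was 0.32 within lane 4, with no test. The other carnitine genes overlapped between genotypes. *Slc25a20*, the carrier that exchanges acylcarnitine for carnitine, had a log2 fold change of 0.05, and *Crat*, which handles short chains, one of 0.23. Exons of neighbours on the opposite strand cover 8.72% of *Crat*. The median over the 4 tested carnitine genes was 0.39, against 0.05 over all genes.

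*Pdk4* (chr6:5433351-5446309) encodes a kinase that switches off the pyruvate dehydrogenase complex and so spares glucose when fat is burned. It had 37.2, 117 and 33.2 CPM in WT libraries and 121, 273, 216 and 221 CPM in KO libraries. WT replicate 2 stood apart from the other WT libraries and just below KO replicate 1. The means of 62.3 ± 47.1 CPM (SD, n = 3) and 208 ± 63.1 CPM (SD, n = 4) gave a ratio of 3.34 and a log2 fold change of 1.74 (standard error 0.473), the largest of the 33. The adjusted p was 0.0991 in edgeR's quasi-likelihood test and 0.00994, just under the limit, in its exact test, both with Benjamini-Hochberg adjustment. With single libraries left out, the log2 fold change of *Pdk4* ran from 1.43 to 2.56 and that of *Cpt1a* from 0.82 to 1.45. Within lane 4 they were 0.91 and 0.59, with 1 WT library and no test.

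Of the groups of members, the ketone body enzymes had the lowest median log2 fold change, -1.19. *Oxct1* (ENSMUSG00000022186, chr15:3976383-4105344) encodes the transferase that activates acetoacetate with the CoA of succinyl-CoA and is the committed step of ketone body use. It had 263, 112 and 175 CPM in WT libraries and 83.3, 75.7, 75.7 and 87.2 CPM in KO libraries. The KO libraries lay close together and below all WT libraries, which spread widely. The means were 183 ± 75.7 CPM (SD, n = 3) and 80.5 ± 5.75 CPM (SD, n = 4), so that WT was 2.28 times KO, and the log2 fold change was -1.19 (standard error 0.252). The adjusted p was 0.0773 in edgeR's quasi-likelihood test and 0.00127 in its exact test, both with Benjamini-Hochberg adjustment. Exons of the lincRNA gene *BC037032* on the opposite strand cover 12.6% of the *Oxct1* exon bases, and reads there were not counted for either gene.

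*Bdh1* (chr16:31422366-31458987) encodes the dehydrogenase that interconverts 3-hydroxybutyrate and acetoacetate. It had 96.7, 40.5 and 68.9 CPM in WT libraries and 28.6, 18.6, 23.9 and 37.6 CPM in KO libraries. The groups did not overlap, though WT replicate 2 came close to KO replicate 4. WT was 2.53 times KO, and the log2 fold change of -1.34 (standard error 0.311) was the lowest of the members, with adjusted p values of 0.0836 in edgeR's quasi-likelihood test and 0.00267 in its exact test, both with Benjamini-Hochberg adjustment.

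*Acat1* (chr9:53388627-53418487) encodes the mitochondrial acetoacetyl-CoA thiolase, which splits the product of *Oxct1* into acetyl-CoA and also serves isoleucine breakdown. It had 113, 94.0 and 108 CPM in WT libraries and 43.1, 66.8, 63.8 and 55.6 CPM in KO libraries. The highest KO library lay well below the lowest WT library. WT was 1.83 times KO, and the log2 fold change was -0.87 (standard error 0.172). Its adjusted p was 0.0712 in edgeR's quasi-likelihood test and 0.00158 in its exact test, both with Benjamini-Hochberg adjustment. The fold change here stayed inside the study's limit, although the study lists *Acat1* among its differentially expressed lipid genes. Of the 3, the log2 fold change of *Acat1* moved least, with -0.96 to -0.76 with single libraries left out, against -1.45 to -0.84 for *Oxct1* and -1.61 to -1.01 for *Bdh1*. Within lane 4 the values were -0.65, -0.46 and -0.40, with 1 WT library and no test.

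**Figure D2:**
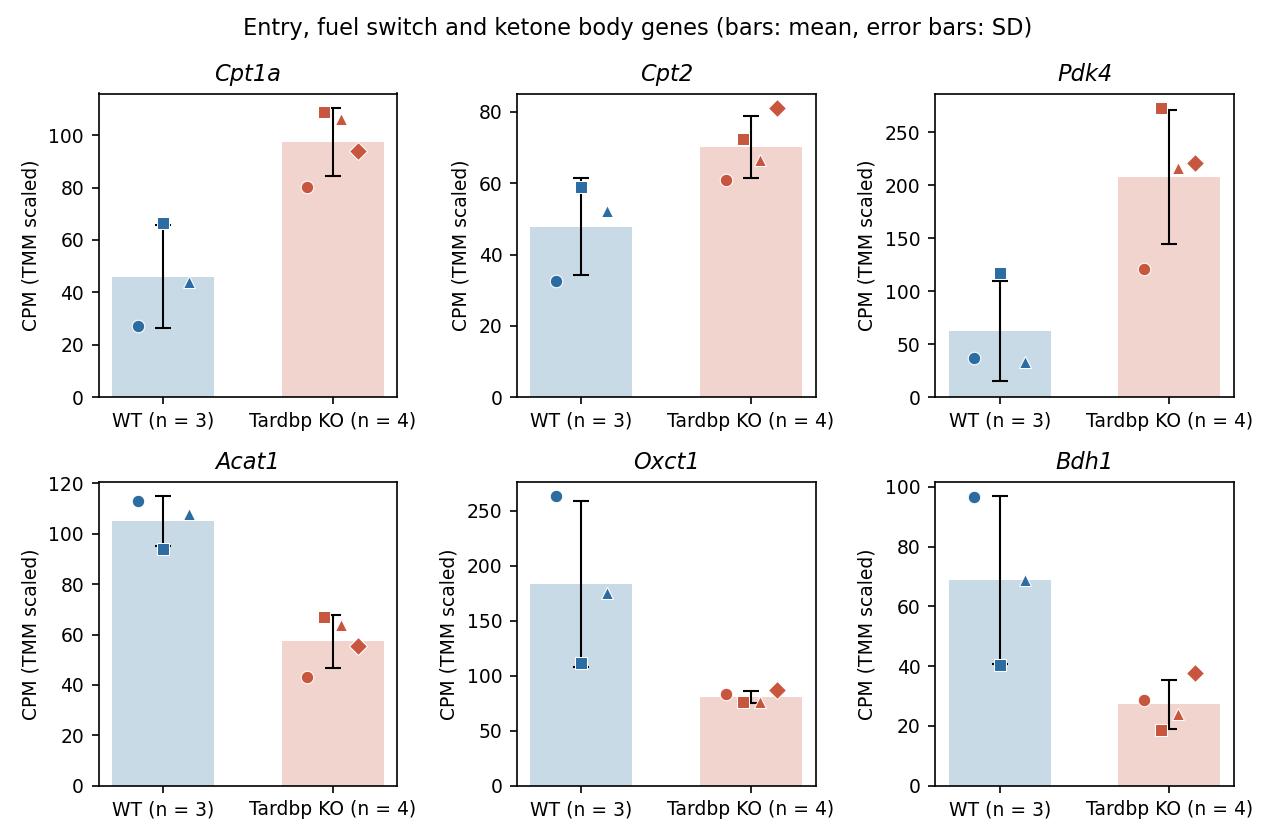
CPM (TMM scaled) of the 6 genes whose groups did not overlap and whose unadjusted p was under 0.05. Points are libraries (circle, square, triangle and diamond for replicates 1 to 4), bars are means and error bars are SD over 3 WT or 4 KO libraries. WT replicate 2, the blue square, is the WT library nearest to the KO libraries in each gene.

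Milk protein genes were lower as well. Each of 7 had lower levels in every KO library than in every WT library, against 9.62% of all genes. Their summed levels were 309062 to 459977 CPM in WT and 111624 to 212188 CPM in KO libraries. Their part in the ketone body result was not tested. The luminal marker *Elf5*, a regulator of milk gene expression, had 1017 to 1108 CPM in WT and 434 to 864 CPM in KO libraries, a log2 fold change of -0.59. Over all 8 luminal markers the median was 0.40, with 6 above 0 and 2 below, 2 higher and 1 (*Elf5*) lower with an unadjusted p under 0.05, and 1 in each direction without overlap between genotypes. Other genes of ketone body and acetate activation were listed too, 10 of 12 of them tested. None was higher with an unadjusted p under 0.05 and 4 were lower, against 10.7% of all genes in each direction. In edgeR's exact test 3 were called lower, against 1.44% of all genes. They were *Aacs*, the cytosolic enzyme that activates acetoacetate for lipid synthesis, with a log2 fold change of -1.30, *Acss2*, cytosolic acetyl-CoA synthetase, with -1.26, and *Acss1*, its mitochondrial counterpart, with -1.13. *Aacs* is among the study's own lipid genes as well. *Aacs* had 206, 71.4 and 134 CPM in WT libraries and 45.6, 60.1, 47.4 and 70.0 CPM in KO libraries, again with WT replicate 2 next to the KO libraries.

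No enzyme of the mitochondrial cycle passed the limits in the quasi-likelihood test, but neither did any other of the 17175 genes tested (0%). The first step is taken by the acyl-CoA dehydrogenases, which share the work by chain length. Their log2 fold changes were -0.13 for *Acadvl* (very long chains), 0.52 for *Acadl* (long chains), 0.10 for *Acadm* (medium chains) and 0.38 for *Acads* (short chains), and all overlapped between genotypes. *Acadl* spread most, from 98.8 to 316 CPM in WT and from 176 to 353 CPM in KO libraries. Exons of *Dvl2* on the opposite strand cover 42.9% of the *Acadvl* exon bases, so a large part of that gene was not counted. No dehydrogenase had an unadjusted p under 0.05, against 10.7% of all genes in each direction. The standard error was widest for *Acadl*, at 0.380.

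The later steps overlapped between genotypes as well. *Hadha* and *Hadhb*, the subunits of the trifunctional protein for long chains, had log2 fold changes of 0.28 and 0.19. *Echs1* and *Hadh*, the hydratase and dehydrogenase for shorter chains, had -0.36 and -0.12, and *Acaa2*, the thiolase, had 0.21. Among these later steps, *Echs1* had the lowest value, with 84.5 to 102 CPM in WT and 52.2 to 85.7 CPM in KO libraries. Its adjusted p was 0.280 in the edgeR quasi-likelihood test after Benjamini-Hochberg adjustment. Enzymes that deal with double bonds had -0.14 (*Eci1*), 0.59 (*Eci2*) and 0.17 (*Decr1*). *Eci2*, an isomerase found in both mitochondria and peroxisomes, reached 42.8 to 95.2 CPM in WT and 74.1 to 127 CPM in KO libraries, which overlap.

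Electrons of the first step go through the electron transfer flavoprotein. Its subunits *Etfa* and *Etfb* had log2 fold changes of 0.03 and -0.24 and overlapped. *Etfdh*, the membrane oxidoreductase that hands these electrons to ubiquinone, had 56.9, 66.8 and 56.6 CPM in WT libraries and 74.1, 74.5, 67.9 and 76.0 CPM in KO libraries. It was the only one of these 3 whose groups did not overlap. The difference was small, at a ratio of 1.22 and a log2 fold change of 0.28 (standard error 0.126), with an adjusted p of 0.235 in the edgeR quasi-likelihood test after Benjamini-Hochberg adjustment.

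Of the 4 peroxisomal enzymes, 2 had log2 fold changes above 0 and 2 below. *Acox3*, an oxidase of the first step that acts on branched chains, had 29.7, 42.6 and 27.7 CPM in WT libraries and 33.9, 45.0, 42.7 and 44.0 CPM in KO libraries, a log2 fold change of 0.31. *Ehhadh*, a bifunctional hydratase and dehydrogenase, had 66.3, 103 and 66.2 CPM in WT and 66.8, 86.2, 45.7 and 67.8 CPM in KO libraries, a log2 fold change of -0.23. In both genes WT replicate 2 was the highest WT library and the groups overlapped. *Hsd17b4*, the other bifunctional protein, which handles very long and branched chains, had 139, 162 and 157 CPM in WT and 109, 144, 133 and 182 CPM in KO libraries, a log2 fold change of -0.10. *Acaa1a*, the peroxisomal thiolase, had 83.8, 137 and 104 CPM in WT and 89.2, 114, 103 and 163 CPM in KO libraries, a log2 fold change of 0.12. Each of the 4 overlapped, and their adjusted p values lay between 0.371 and 0.824 in the edgeR quasi-likelihood test after Benjamini-Hochberg adjustment. The coding sequence of *Acaa1a* is 96.5% identical to that of *Acaa1b*, and reads that fit both were not counted.

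To contrast the organelles, 14 mitochondrial enzymes (the dehydrogenases, the later steps, *Eci1*, *Decr1* and the electron transfer genes) were set against the 4 peroxisomal ones. Their median log2 fold changes were 0.13 (-0.36 to 0.52, 9 above 0 and 5 below) and 0.01 (-0.23 to 0.31, 2 above 0 and 2 below), against 0.05 over all genes. No gene of either group had an unadjusted p under 0.05, against 10.7% of all genes in each direction. The carnitine genes, the ketone body enzymes, the thioesterases and *Eci2* were in neither group. Among them *Cpt1a* and *Cpt2* were higher and *Acat1*, *Oxct1* and *Bdh1* lower with an unadjusted p under 0.05. The share of all genes was again 10.7% in each direction. The mean log2 level of each group, relative to its WT mean, was -0.30, 0.27 and 0.03 for mitochondrial and -0.20, 0.31 and -0.11 for peroxisomal enzymes in WT replicates 1 to 3. In KO replicates 1 to 4 it was -0.37, 0.27, 0.11 and 0.33 for mitochondrial and -0.22, 0.16, -0.15 and 0.28 for peroxisomal enzymes. Both groups had the same sign in 5 of the 7 libraries, all except WT replicate 3 and KO replicate 3, and the difference between them was -0.10, -0.04 and 0.14 in WT and -0.15, 0.11, 0.26 and 0.06 in KO libraries. These ranges overlap. The differences by library had an SD of 0.127 over the WT and 0.169 over the KO libraries, with a KO mean of 0.07. The difference of the median log2 fold changes, another measure, was 0.13. It was 0.02 with *Eci2* counted as peroxisomal and 0.17 with the carnitine system counted as mitochondrial.

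**Figure D3:**
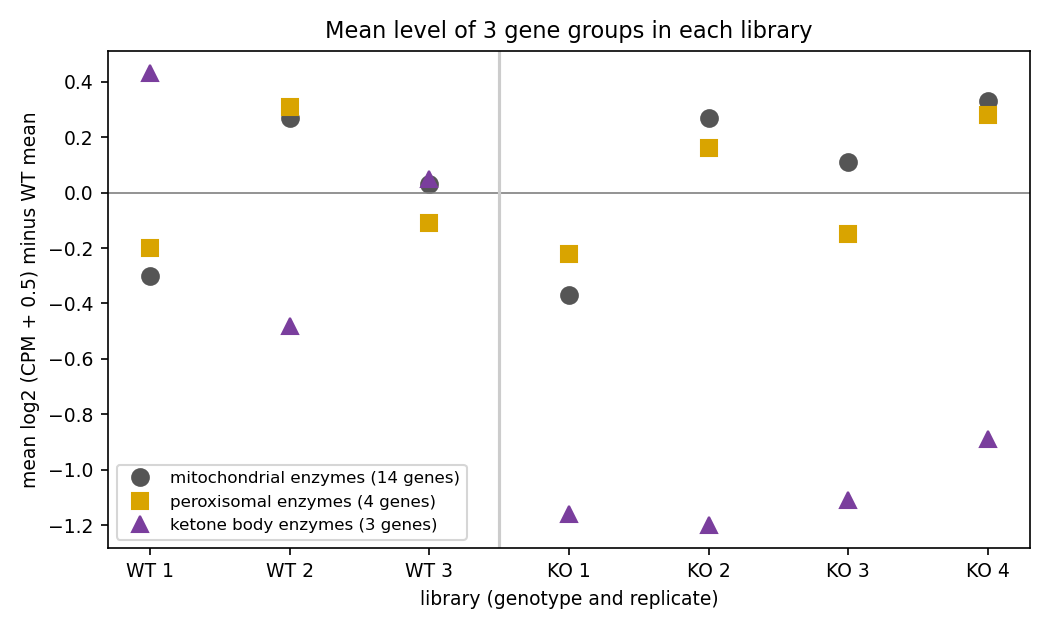
Mean log2(CPM + 0.5) of 14 mitochondrial, 4 peroxisomal and 3 ketone body enzymes in each library, minus the mean of the 3 WT libraries. Circles and squares overlap between genotypes, from -0.37 to 0.33, while the ketone body triangles lie at -0.48 or above in WT and at -0.89 or below in KO libraries.

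Single libraries carried much of the spread. WT replicate 1 was the lowest WT library in 23 of the 33 members and in 12 of the 14 mitochondrial enzymes, against 35.5% of all genes, and WT replicate 2 was the highest in 24 and in 11, against 38.7% of all genes. Among KO libraries, replicate 1 was the lowest in 27 members and in 13 mitochondrial enzymes, against 30.6% of all genes. WT replicate 2 lay within the range of the KO libraries in 22 of the 33 members (58.4% of all genes), WT replicate 3 in 16 (48.5%) and WT replicate 1 in 11 (41.5%). Without WT replicate 2, 16 members instead of 7 had an unadjusted p under 0.05, and over all genes the share went from 21.4% to 25.1%. The members that did not overlap became 15 instead of 7, where the share of all genes went from 18.7% to 37.2%. Without KO replicate 1, 12 did not overlap, against 25.8% of all genes. Whether the members moved more than other genes was not tested.

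Broader lists were read for both organelles. Of 26 other genes of mitochondrial oxidation and transport, 24 were tested, with a median log2 fold change of -0.09. With an unadjusted p under 0.05, 1 was higher and 3 lower, against 10.7% of all genes in each direction. *Slc25a29*, a mitochondrial carrier of basic amino acids, was the one called by edgeR's exact test, with a log2 fold change of -1.95, from 8.28 to 26.2 CPM in WT and 3.71 to 6.02 CPM in KO libraries. *Mlycd*, which removes the malonyl-CoA that inhibits *Cpt1a*, had a mean of 37.8 CPM in both genotypes. Of 36 other peroxisomal enzymes, 33 were tested, with a median of 0.01. Of these, 4 were lower and none higher with an unadjusted p under 0.05, against 10.7% of all genes in each direction. The lowest p values belonged to *Pecr*, a reductase of fatty acid elongation, with -0.85, and to *Acox2*, an oxidase of bile acid intermediates at 2.26 to 2.80 CPM in WT and 0.552 to 1.49 CPM in KO libraries, with -1.42. The exact test called none of these 33. The 17 peroxins, which build the organelle, had a median of -0.16 and none was called by the exact test, with *Pxmp3* at -0.38 and *Pex26* at -0.39.

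Acyl-CoA thioesterases release free fatty acids from CoA. *Acot1*, the cytosolic form, had 92.9, 338 and 157 CPM in WT and 226, 268, 240 and 459 CPM in KO libraries. *Acot2*, the mitochondrial form, had 7.03, 21.4 and 11 CPM in WT and 24.2, 14.9, 15.5 and 24.8 CPM in KO libraries. WT replicate 2 lay among the KO libraries in both, and the log2 fold changes of 0.60 and 0.59 had adjusted p values of 0.462 and 0.396 in the edgeR quasi-likelihood test after Benjamini-Hochberg adjustment. Their coding sequences are 96.1% identical over the aligned bases and reads that fit both were not counted, so the split between them is uncertain.

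Apart from *Pdk4*, the regulators overlapped between genotypes. *Ppara*, the nuclear receptor that drives oxidation genes in liver, had 4.44, 1.64 and 3.57 CPM in WT and 0.849, 2.07, 1.94 and 1.15 CPM in KO libraries. WT replicate 2 lay among the KO libraries, and the log2 fold change of -1.09 (standard error 0.436) had an adjusted p of 0.197 in the edgeR quasi-likelihood test after Benjamini-Hochberg adjustment. *Ppard*, a related receptor, had -0.16, and *Ppargc1a*, a coactivator of mitochondrial genes, had -0.00 at 1.11 to 2.76 CPM over all libraries. *Ucp2*, a carrier of the inner mitochondrial membrane, had 467, 1772 and 1060 CPM in WT and 732, 2096, 2466 and 2514 CPM in KO libraries, with a log2 fold change of 0.83 and an adjusted p of 0.401 in the same test. Its groups overlapped, with WT replicates 2 and 3 above KO replicate 1. The 9 myeloid markers, none at 0 in any library, summed to 413 to 1528 CPM in WT and 1111 to 2674 CPM in KO libraries. *Cd14* made up most of that sum in KO libraries, at 680, 1648, 2203 and 2262 CPM, against 135, 1299 and 382 CPM in WT. The other 8 summed to 278, 230 and 327 CPM in WT and 431, 584, 471 and 205 CPM in KO libraries. All 9 markers had log2 fold changes above 0, from 0.27 to 1.49. None had an unadjusted p under 0.05, against 10.7% of all genes in each direction. The part of myeloid cells in the level of *Ucp2* was not tested.

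Of 25 other regulators, edgeR's exact test called none. With an unadjusted p under 0.05, 1 was higher and 1 lower, against 10.7% of all genes in each direction. They were *Foxo1*, a transcription factor active in fasting, with a log2 fold change of 0.41, and *Klf15*, another such factor, with -0.69. *Pparg*, the receptor of fat storage, had 24.2 to 35.0 CPM in WT and 21.1 to 38.4 CPM in KO libraries. Known PPAR target genes outside the members were tested in 12 of 14 cases and had a median of 0.54. Of these, 3 were higher and 2 lower with an unadjusted p under 0.05, against 10.7% of all genes in each direction. The exact test called only *G0s2*, an inhibitor of the lipase ATGL, which was lower, where 1.44% of all genes were called lower. It had 104, 162, 30.1 and 151 CPM in KO against 897, 488 and 1067 CPM in WT libraries (log2 fold change -2.87). *Angptl4*, a secreted inhibitor of lipoprotein lipase, had 161, 759 and 162 CPM in WT and 1105, 756, 1121 and 1453 CPM in KO libraries. WT replicate 2 again lay apart from the other WT libraries and beside KO replicate 2, and the log2 fold change of 1.62 had an adjusted p of 0.153 in the edgeR quasi-likelihood test after Benjamini-Hochberg adjustment.

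The genes around *Pdk4* were listed as well. Of 13 genes of the pyruvate dehydrogenase switch and uncoupling, 8 were lower and none higher with an unadjusted p under 0.05. Over all genes the share was 10.7% in each direction. The median log2 fold change over the 13 was -0.42, and edgeR's exact test called 1 lower, against 1.44% of all genes. This was *Pdhb*, the beta subunit of the complex that *Pdk4* inactivates, with 457, 263 and 323 CPM in WT and 120, 132, 109 and 148 CPM in KO libraries and a log2 fold change of -1.45 (standard error 0.211). All KO libraries lay well below the WT libraries, and the adjusted p was 0.0517 in edgeR's quasi-likelihood test and 7.24e-07 in its exact test, both with Benjamini-Hochberg adjustment.

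Levels of different genes were compared per length of their annotated exons, as mean RPKM (CPM per kilobase). In WT libraries the members ran from 0.329 RPKM for *Ppargc1a* and 0.838 RPKM for *Ppara* to 157 RPKM for *Ucp2*, with a median of 25.5. *Acot1* followed at 125 RPKM, *Etfb* at 110 RPKM and *Acadl* at 100 RPKM. *Cpt1a* went from 10.7 to 22.6 RPKM and thereby from below *Slc25a20* (26.9 and 27.8 RPKM) to near it. *Oxct1* went from 49.6 to 21.7 RPKM, *Acat1* from 27.9 to 15.3 RPKM and *Bdh1* from 18.1 to 7.15 RPKM, so the order of the 3 was the same in both genotypes. *Acox3*, at 3.22 RPKM in WT libraries, has 10343 annotated exon bases, more than any other member, which lowers its RPKM.

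**Figure D4:**
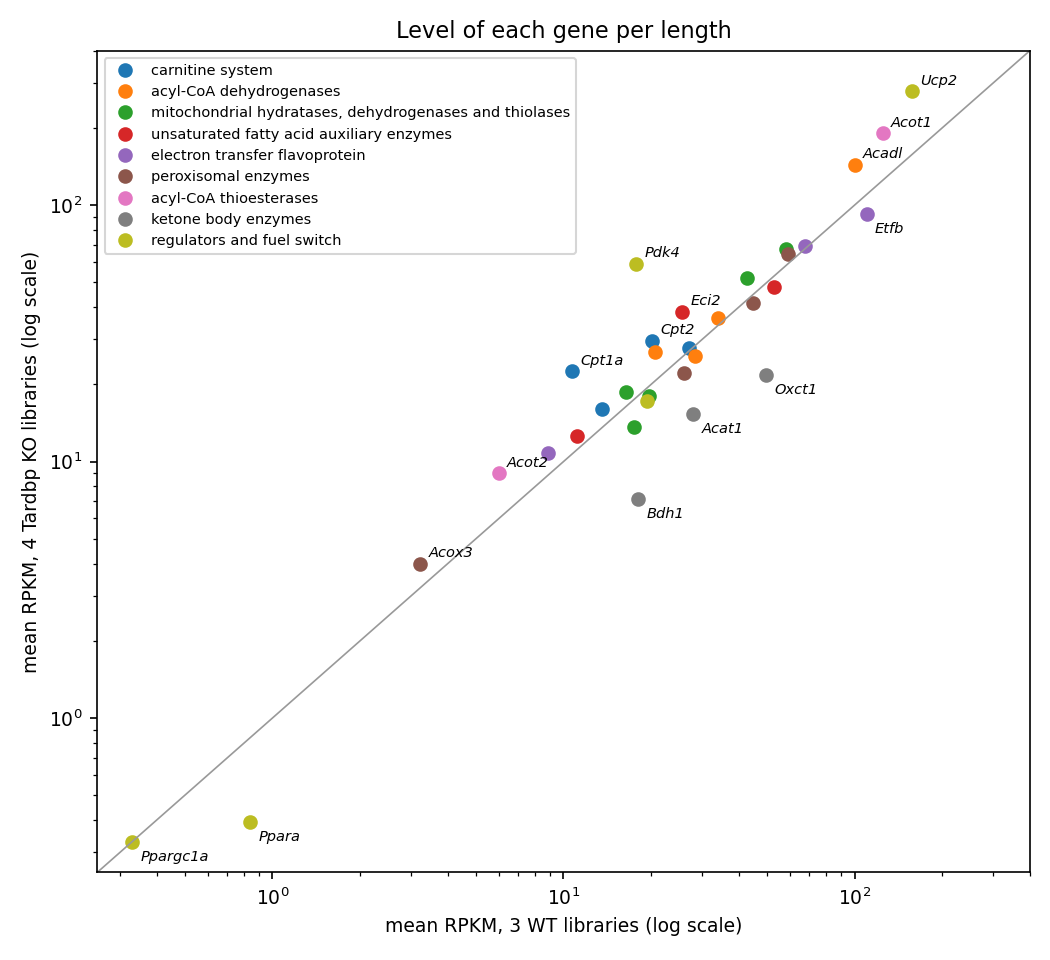
Mean RPKM of the 33 tested genes in 3 WT libraries (horizontal) and 4 KO libraries (vertical), both on log scales, coloured by role. The line marks equal levels. Pdk4 and Cpt1a lie above the line and Oxct1, Acat1 and Bdh1 below it. The 14 mitochondrial and 4 peroxisomal enzymes of the contrast lie close to it.

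Scaling shifted all genes together. With library size alone in place of TMM, the median log2 fold change was 0.42 over all genes and 0.46 over the members, instead of 0.05 and 0.12, and 9 members changed sign. The directions of *Cpt1a*, *Cpt2*, *Pdk4*, *Acat1*, *Oxct1* and *Bdh1* were the same under that scaling, at 1.43, 0.90, 2.08, -0.49, -0.79 and -0.96.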

How the data were processed

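Total RNA of mammary glands was sequenced by the authors as paired-end reads, mapped with STAR (version 2.5.2a in the submitters' processing notes) to NCBIM37 and counted on GENCODE vM1 exons with featureCounts 1.4.6-p5. The deposited values are whole-number read counts per gene without normalization. Mates were counted singly, strand was ignored, and multimapping or ambiguous reads were left out. The command line names 1 further library, which was not analysed here. Groups follow the labelled genotype. Mitochondrial (37) and ribosomal (580) genes were dropped, and the 17175 that reached 5 counts in 4 or more of 7 libraries were tested in edgeR 4.0.16 (R 4.3.3) with TMM factors and the quasi-likelihood test, with Benjamini-Hochberg adjustment over all of them. The standard error is the log2 fold change divided by the square root of F. Total counts of 36007737 to 42811337 set the counting error, and the SD over libraries also holds differences between mice and preparation. The p-values set the difference between genotypes against the spread between these libraries, with information on that spread shared across genes.

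Members and gene lists were chosen with earlier results of these data known. Library values were given for members with an unadjusted p under 0.05 or an exact-test call, for the peroxisomal and ketone enzymes, and for genes of other lists called by the exact test or with the lowest p, together with *Mlycd*, *Pparg* and *Angptl4*. Some genes that this rule names are not reported here. Library values of *Etfdh*, *Acot1*, *Acot2* and *Ucp2* were added after they had been seen. Of the list genes, 7 were found through older symbols. UG runs were counted in the longest protein-coding transcript. Scripts were tested on simulated data. Alternatives were other normalizations, filters, tests (edgeR's exact test, DESeq2 1.42.0) and thresholds, a replicate block, single libraries left out and lane 4 alone. Python 3.11.15 was used with matplotlib 3.10.9, pandas 2.3.3 and numpy 2.4.6.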

Additional observations from a re-analysis of the deposited data

How the results depend on the processing

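Of all genes tested, edgeR's quasi-likelihood test called 0, against 426 in edgeR's exact test, 568 in DESeq2's Wald test, 1 without a filter on low counts and 1 at an adjusted p under 0.05. Members called were 0, against 4 in the exact test and 4 in DESeq2. Members with an unadjusted p under 0.05 were 7, against 13 with library size only and 5 to 16 when each library was left out (16 without WT replicate 2). The median of the members was 0.12, against 0.46 with library size only and -0.01 to 0.30 when each library was left out. Members whose groups did not overlap were 7, and 7 to 15 when each library was left out (15 without WT replicate 2, 12 without KO replicate 1). In an alternative chosen after seeing the data, the 4 members called by the exact test became 0 to 4 when each library was left out, while calls over all genes ran from 115 (without WT replicate 1) to 814 (without WT replicate 2). The cause of these changes was not tested. The difference between mitochondrial and peroxisomal medians was 0.13 and ran from 0.02 to 0.24 over all alternatives. With a replicate block, which left out KO replicate 4, 0 members were called, 10 had an unadjusted p under 0.05 and the median was 0.00. Leaving out KO replicate 4 without a block gave 5 such members and a median of 0.04. Same-numbered libraries correlated at 0.351, 0.0941 and -0.0580. Libraries of different numbers were not compared, so whether the numbers pair the libraries was not tested. Lane 4 alone, with 1 WT library and no test, gave a median of -0.03 and turned the sign of 7 members. With 3 and 4 libraries per genotype, small differences of single members could not be told from 0.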
